A study of Oryctolagus cuniculus with 6 samples.

Results

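RHAG, ALAS2, HEMGN and TMOD1, 4 genes of the red cell lineage, were followed in healing skull defects of rabbits as a gauge of blood and erythroid content. They were found among 9343 named genes tested, and among 20214 features tested in all, by symbol, gene number or product name. The series compared HPD, named human particulated dentin in its title, with unfilled control defects on days 3, 5 and 7. In male New Zealand White rabbits (Oryctolagus cuniculus), 4 months old, circular parietal defects 5 mm wide either received 0.2 g of HPD or stayed empty, both kinds in the same animal, and 24 rabbits were used in all. The 6 groups are HPD on day 3, day 5 and day 7 and unfilled control on day 3, day 5 and day 7, with 1 array of newly formed tissue each. No label states whether an array pools several animals, and although the series' design speaks of blood taken along with bone, every array is labelled as newly formed tissue.

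Red cell precursors mature in the bone marrow under erythropoietin, fill with haem and globin, build a spectrin and actin skeleton under the membrane, and expel their nucleus. Young red cells that have just entered the blood still carry the RNA of this programme, and older ones lose it. RHAG encodes the Rh-associated glycoprotein, the membrane partner of the Rh blood group proteins and a channel for ammonium. TMOD1 encodes tropomodulin, which caps the short actin filaments of the red cell skeleton and also the thin filaments of striated muscle. ALAS2 is the erythroid form of 5-aminolevulinate synthase, the enzyme that starts haem synthesis, and HEMGN encodes hemogen, a nuclear protein of blood-forming cells that promotes erythroid differentiation.

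The 4 genes were read by 6 probes of 60 bases, shown because every value given for these genes rests on them. Coordinates are those the array files give on the oryCun2 build, and the capitals mark the 15 bases that all 3 HEMGN probes share.
RHAG probe: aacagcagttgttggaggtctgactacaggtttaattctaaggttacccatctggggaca
ALAS2 probe: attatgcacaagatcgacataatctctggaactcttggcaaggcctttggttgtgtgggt
HEMGN probe 1: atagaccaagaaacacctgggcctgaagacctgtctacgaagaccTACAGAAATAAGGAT
HEMGN probe 2: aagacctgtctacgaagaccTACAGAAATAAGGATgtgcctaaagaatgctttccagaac
HEMGN probe 3: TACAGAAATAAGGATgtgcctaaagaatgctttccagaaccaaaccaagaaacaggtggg
TMOD1 probe: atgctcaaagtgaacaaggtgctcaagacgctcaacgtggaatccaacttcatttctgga

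The RHAG probe (ENSOCUT00000016181) lies at chr12:38838831-38839103 on the minus strand, and the ALAS2 probe (ENSOCUT00000013600) at chrX:36434483-36435107 on the minus strand. These intervals span 273 and 625 bases, longer than the probe, so neither probe is 1 contiguous stretch of the genome. The HEMGN probes (ENSOCUT00000010698) lie on the plus strand at chr1:15143366-15143425, chr1:15143391-15143450 and chr1:15143411-15143470, and the TMOD1 probe (ENSOCUT00000013831) at chr1:15480858-15480917 on the minus strand. HEMGN and TMOD1 thus lie on the same chromosome, with 337 kb between their probes. The 6 probes hold 41.7% to 45% G and C, and the longest run that any of them shares with the probe of another gene is 14 bases. No annotation of that build was used here, so exons and untranslated regions are not stated. The brightest HEMGN probe, probe 1, carries that gene's values.

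All levels are log2 of the processed spot intensity minus the array's 75th percentile of it, so 0 is the level of a spot at that percentile and 1 unit is a 2-fold difference. A level describes 1 probe across arrays and is not set against another probe's. Between 78.1% and 86.4% of the non-control spots of an array were well above background, 0 spots were saturated, and the 75th percentile of intensity ran from 309 to 471. All 11 measured genes of the bone and repair tissue list were well above background on all 6 arrays, with list medians of 4.93, 5.39 and 6.48 in HPD defects of days 3, 5 and 7, against 4.90, 6.82 and 7.04 in control defects. Both arrays of day 3 lay on 1 slide and the 4 arrays of days 5 and 7 on another, so the step between day 3 and the later days cannot be told apart from the slide. Treatment differences within a day lie within 1 slide.

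RHAG, the membrane channel, stood at -2.05, -1.88 and -3.81 in HPD defects of days 3, 5 and 7, against 0.64, -2.68 and -3.92 in control defects. The day 3 control array was the highest of the 6, by 2.52 over the next one, which was HPD on day 5. On day 3 RHAG was 6.46-fold lower with HPD, on day 5 it was 1.74-fold higher, and on day 7 both arrays lay within 1.08-fold. In control defects it was 9.96-fold lower on day 5 than on day 3 and 23.5-fold lower on day 7 than on day 3. In HPD defects days 5 and 3 differed by 0.17 on the log2 scale, and day 7 was 3.37-fold lower than day 3. The size of these RHAG steps depended on the handling of background. Under another background correction, normexp, the control steps from day 3 were -2.19 to day 5 and -2.62 to day 7, in place of -3.32 and -4.55. The HPD step from day 3 to day 7 was -0.58 under normexp, in place of -1.75. RHAG differed between HPD and control under normexp by -2.10 on day 3 and 0.27 on day 5, in place of -2.69 and 0.80. RHAG was well above background on all 6 arrays, as were the other members. The lowest spot well above background stood at -4.57 on the HPD array and -5.34 on the control array of day 7. The RHAG levels of that day thus lay toward the low end of what the arrays read. Fewer red cells or precursors and less RNA in each of them cannot be told apart in such bulk tissue.

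TMOD1, the filament cap, stood at -1.97, -0.47 and -1.79 in HPD defects of days 3, 5 and 7, against 0.999, -1.08 and -1.74 in control defects. Again the day 3 control array was the highest and the day 5 HPD array the next, whereas the day 3 HPD array was the lowest of the 6. TMOD1 was 7.82-fold lower with HPD on day 3, 1.53-fold higher on day 5, and within 1.03-fold on day 7. In HPD defects it was 2.83-fold higher on day 5 than on day 3 and 2.50-fold lower on day 7 than on day 5. In control defects it was 6.68-fold lower on day 7 than on day 3.

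HEMGN, the nuclear protein, stood at 1.03, 1.95 and 1.30 in HPD defects of days 3, 5 and 7, against 3.30, 0.88 and 0.68 in control defects. It was 4.83-fold lower with HPD on day 3, but 2.10-fold higher on day 5 and 1.54-fold higher on day 7. HEMGN is thus the member whose level was above control in HPD defects on both later days by the widest margin. The control defects were 5.36-fold lower on day 5 than on day 3, and the HPD defects were 1.89-fold higher on day 5 than on day 3. The 3 overlapping HEMGN probes printed above are not independent, and they gave differences between HPD and control of -2.33 to -2.27 on day 3, 0.97 to 1.07 on day 5 and 0.51 to 0.62 on day 7.

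ALAS2, the haem enzyme, had another course in the control defects. It stood at 3.39, 6.03 and 4.73 in HPD defects of days 3, 5 and 7, against 5.14, 5.53 and 4.91 in control defects. The control arrays spanned only 0.61, with day 5 the highest of them, while the HPD array of day 3 was the lowest of all 6 and the HPD array of day 5 the highest. ALAS2 was 3.38-fold lower with HPD on day 3, 1.42-fold higher on day 5 and 1.13-fold lower on day 7. In HPD defects it was 6.25-fold higher on day 5 than on day 3, and in control defects 1.30-fold higher.

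**Figure D1:**
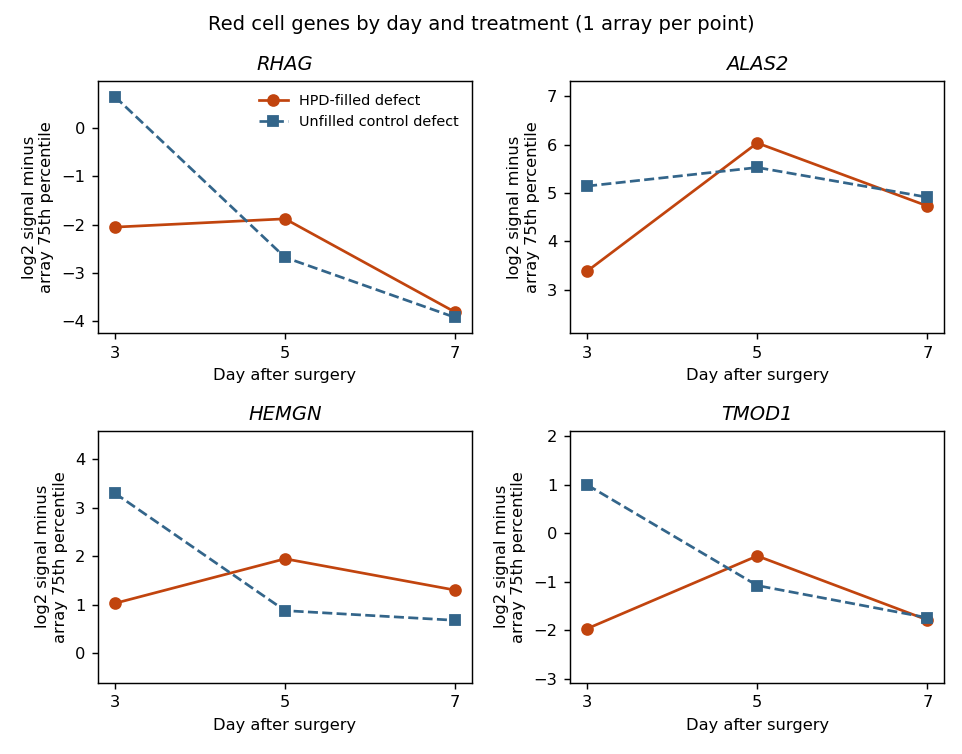
Level of each gene (log2 processed signal minus the array's 75th percentile, vertical axis) by day after surgery (horizontal axis), with circles for HPD-filled and squares for unfilled control defects, 1 array per point; all panels span the same number of log2 units. On day 3 the HPD point lies below the control point in all 4 panels, by 1.75 to 2.97 log2 units, and on day 5 it lies above it in all 4, by 0.51 to 1.07.

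On day 3 all 4 members were at least 2-fold lower in HPD than in control defects. Among 19859 features well above background on both arrays of that day, 598 (3.01%) were at least 2-fold lower and 712 (3.59%) at least 2-fold higher. Counted from the lowest difference upwards, TMOD1 was at place 14, RHAG at 23, HEMGN at 60 and ALAS2 at 118 of the 19859. The central 98% of features lay between -1.50 and 1.62, with a median of 0.13, so every member lay below that range. The members were chosen with earlier results of these data known, so these places describe them and give no separate support.

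On day 5 the differences turned. All 4 members were higher in HPD defects, but only HEMGN reached 2-fold, and not under a median shift (0.94), where 4.9% of 19208 features were at least 2-fold higher and 1.68% at least 2-fold lower. The median over all features was 0.10 on that day, against 0.51 to 1.07 for the members, and RHAG stood at only 0.27 under normexp. The central band of features, defined as before, ran from -1.22 to 1.67 on day 5, and all 4 members lay within it. Of the 19208 features, 781 were as high as HEMGN or higher, 1649 as RHAG, 2731 as TMOD1 and 3630 as ALAS2. On day 7, HEMGN at 0.62 and RHAG at 0.11 were above 0, TMOD1 stood at -0.05 and ALAS2 at -0.18, and 0 members were 2-fold apart, where 1.64% of 18573 features were at least 2-fold higher and 0.851% lower. With 1 array per treatment and day, differences on a single day have no replicate check and no test.

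Between days, the HPD and the control defects took different courses from day 3 to day 5. In HPD defects ALAS2 and TMOD1 were at least 2-fold higher on day 5 than on day 3 and 0 members were 2-fold lower, where 3.48% of features were higher and 3.51% lower by that much. In control defects RHAG, HEMGN and TMOD1 were at least 2-fold lower on day 5 and 0 members 2-fold higher, where 6.74% of features were lower and 4.79% higher. From day 5 to day 7 in HPD defects RHAG, ALAS2 and TMOD1 were at least 2-fold lower on day 7 and 0 members higher, where 4.22% of features were lower and 3.18% higher. In control defects RHAG alone was 2-fold lower on day 7 than on day 5, where 1.6% of features were lower and 2.99% higher. For day 7 against day 3, RHAG, HEMGN and TMOD1 were at least 2-fold lower in control defects and 0 members higher, where 5.66% of features were lower and 6.67% higher. In HPD defects RHAG was 2-fold lower on day 7 than on day 3 (background 4.54%) and ALAS2 2-fold higher (background 4.49%). Under normexp, another background correction, 4 of these calls were lost: RHAG stood at -0.58 (day 7 minus day 3) and -0.76 (day 7 minus day 5) in HPD defects and at -0.43 (day 7 minus day 5) in control defects, and TMOD1 at -0.93 (day 7 minus day 5) in HPD defects. Under a median shift HEMGN passed 2-fold for day 5 minus day 3 in HPD defects, at 1.04. Each of these counts shares the arrays of a day with another, so they are not separate observations.

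The treatment effect over the 3 days was tested with limma in a model that adds a treatment term to a day term, fitted to the 6 arrays with Benjamini-Hochberg adjustment over 20214 features. It called 0 features (0%), 0 members among them, and 8.52% of features had an unadjusted p under 0.05. RHAG averaged -2.58 ± 1.07 in HPD and -1.99 ± 2.35 in control defects (SD over 3 days, n = 3 each), a limma difference of -0.60 ± 0.72 (SE, adjusted p = 0.753). TMOD1 averaged -1.41 ± 0.82 in HPD and -0.61 ± 1.43 in control defects, a limma difference of -0.80 ± 0.75 (adjusted p = 0.687). HEMGN averaged 1.43 ± 0.47 in HPD and 1.62 ± 1.46 in control defects, a limma difference of -0.19 ± 0.71 (adjusted p = 0.928). ALAS2 averaged 4.72 ± 1.32 in HPD and 5.19 ± 0.31 in control defects, a limma difference of -0.48 ± 0.47 (adjusted p = 0.697). The groups overlapped for all 4 genes. These negative averages rest on day 3: without that day the limma difference was positive for all 4, at 0.45 for RHAG, 0.28 for TMOD1, 0.85 for HEMGN and 0.16 for ALAS2.

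The additive model takes the treatment effect to be equal on every day, whereas the members' differences changed sign after day 3. After the values had been seen, a separate treatment effect for day 3 was therefore set against a common one for days 5 and 7, which leaves 1 residual degree of freedom. The day 3 effect minus the later one was -3.25 ± 0.43 for TMOD1, -3.14 ± 0.44 for RHAG, -3.12 ± 0.37 for HEMGN and -1.92 ± 0.44 for ALAS2 (limma estimate ± SE, 6 arrays). The 4 unadjusted limma p-values ran from 0.00143 for HEMGN to 0.0136 for ALAS2, where 6.99% of all features were under 0.05. After Benjamini-Hochberg adjustment over all features limma called 0 features (0%), with adjusted p = 0.468 for RHAG, HEMGN and TMOD1 and 0.508 for ALAS2. Under the normexp background correction limma called all 4 members in this comparison, where the prior degrees of freedom were infinite, and 529 features in all. All 4 members then had the same SE of 0.35, so their own spread did not enter and these calls give no separate support.

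Days were compared in the same additive limma model, where the slide again cannot be told apart from the step after day 3. For day 7 minus day 3 the limma estimate was -3.15 ± 0.89 for RHAG (SE, adjusted p = 0.176), -1.28 ± 0.91 for TMOD1 (0.461), -1.17 ± 0.87 for HEMGN (0.476) and 0.56 ± 0.57 for ALAS2 (0.601). It called 1 of 20214 features (0.00495%) and 0 members, where 20.9% of features had an unadjusted p under 0.05. Without the HPD array of day 3, which leaves the control array alone for that day, the RHAG difference was -4.73. For day 5 minus day 3 the estimate was 1.51 ± 0.57 for ALAS2 (limma adjusted p = 0.306) and -1.57 ± 0.89 for RHAG (0.418), and those of HEMGN and TMOD1 were -0.75 and -0.29. Leaving out 1 array at a time moved it between 0.56 and 2.47 for ALAS2 and between -3.14 (without the HPD array of day 3) and -0.00073 (without the control array of day 3) for RHAG. Again 1 feature (0.00495%) and 0 members were called, and 16.4% of features had an unadjusted p under 0.05. For day 7 minus day 5 all 4 estimates were negative, from -1.58 for RHAG to -0.42 for HEMGN, with limma adjusted p from 0.644 to 0.861, 0 features called (0%) and 8.08% at an unadjusted p under 0.05.

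The other genes of the red cell programme were taken from 4 lists of 86 genes, of which 50 were measured and 49 tested. These lists, too, were chosen with earlier results of these data known. On day 3, 21 of 49 were at least 2-fold lower with HPD and 0 at least 2-fold higher (background 3.01% and 3.59%), 41 were lower at all, and the median difference was -0.81 against 0.13 for all features. On day 5, 3 of 48 were at least 2-fold higher and 0 lower (background 4.9% and 1.68%), 37 were higher at all, and the median was 0.57 against 0.10. On day 7 the median was 0.19 against 0.08, with 1 of 47 at least 2-fold higher and 0 lower (background 1.64% and 0.851%), so the 2-fold counts of days 5 and 7 lie near the background. The limma tests of treatment and of days called 0 of these genes. The highest of the 6 arrays was the day 3 control for 23 of the 49 and the day 5 HPD array for 17. Over all features those shares were 14.5% and 13.4%, and the day 3 HPD array was the highest for 27.5%, against 5 of the 49.

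**Figure D2:**
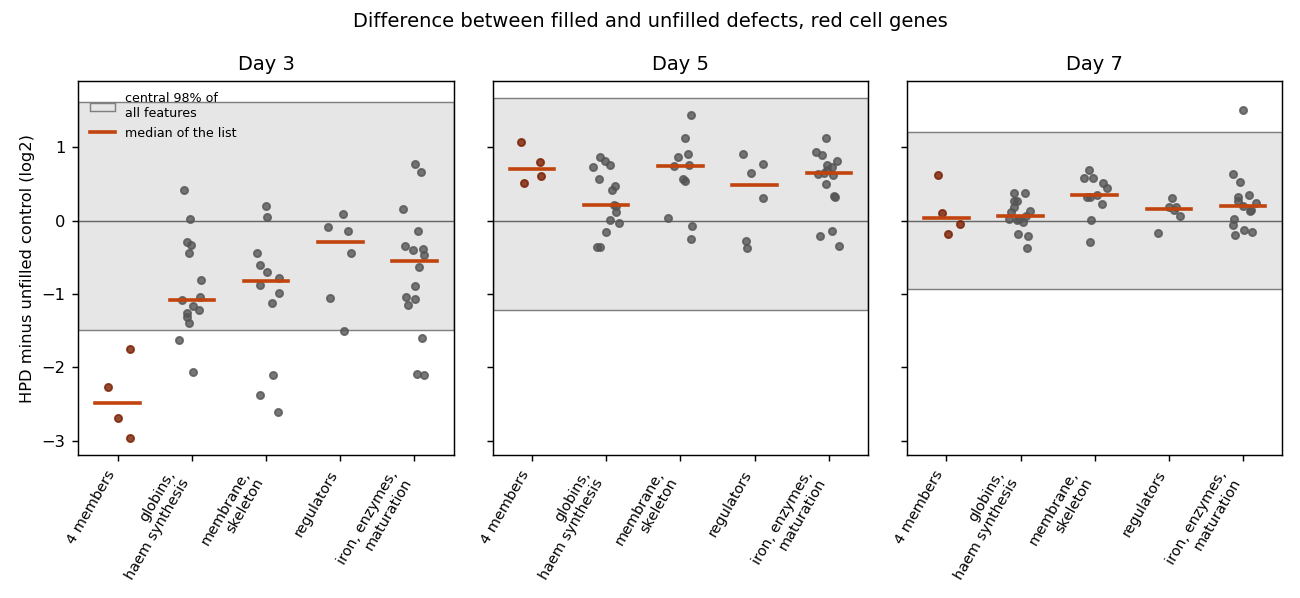
Difference between HPD and control defects (log2, vertical axis) on each day for the 4 members and for the genes of 4 red cell lists well above background on both arrays of that day; points are genes, bars list medians, and the grey band holds the central 98% of all features. On day 3 the members lie from -2.97 to -1.75, below the band, and the list medians from -1.08 to -0.29. On day 5 all 4 list medians are above 0, from 0.20 to 0.74.

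Most genes of the haem pathway beyond ALAS2 stood lower with HPD on day 3. Of 15 measured genes for globins and haem synthesis, 13 were lower, 9 of them at least 2-fold, and the median was -1.08. FECH, which inserts iron into the porphyrin ring as the last step, was 4.17-fold lower with HPD on day 3, but on day 5 it stood 1.66-fold above control. ALAS1, the housekeeping form of the enzyme that ALAS2 provides in red cells, differed between HPD and control by -0.06, 0.14 and 0.75 on days 3, 5 and 7.

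The globins themselves, the most abundant proteins of red cells, separated less. HBA, the alpha-globin gene, stood at 10.002, 10.56 and 10.67 in HPD defects of days 3, 5 and 7, against 10.30, 10.37 and 10.48 in control defects. HBB2, a beta-type globin gene, stood at 10.02, 10.41 and 10.68 in HPD defects, against 9.999, 10.30 and 10.42 in control defects. On day 3 HBA was thus 1.23-fold lower with HPD and HBB2 differed by 0.02 log2 units, while all 4 members were more than 3-fold lower. In control defects HBA and HBB2 were 0.19 and 0.42 higher on day 7 than on day 3, whereas the members differed by -4.55 to -0.23. As a gauge of blood content the members thus did not follow these 2 globins. Spots of these globins read between 54.3% and 79.1% of the scanner's saturation value, and the part of this brightness in their small differences was not tested. The 9 probes of HBA gave day 3 differences from -1.02 to 1.48, and alpha-globin genes have near-identical copies that such probes may not separate, so these values are uncertain. Other globin genes differed more: HBQ1, theta-globin, was 2.63-fold lower with HPD on day 3, then 1.82-fold above control on day 5, and HBZ, embryonic zeta-globin, differed between HPD and control by -0.81, 0.81 and 0.02 on days 3, 5 and 7. The other HBZ probe gave -1.43 on day 3.

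Of 12 genes of the red cell membrane and skeleton, 4 were at least 2-fold lower with HPD on day 3, with a median of -0.83. EPB42, which ties the skeleton to the membrane, had a 4.31-fold lower level with HPD on day 3, and one 1.81-fold higher on day 5. RHD, the Rh protein that assembles with RHAG, was 6.11-fold lower with HPD on day 3, with a difference of -0.08 on day 5; it was matched to its probes only by product name. SPTB, the beta chain of spectrin, differed by 0.20, EPB41, the skeletal protein band 4.1, by -0.78, and SLC4A1, the anion exchanger, by -0.88. All 3 are defining red cell genes, and none reached 2-fold on day 3 by its brightest probe; the 5 probes of SPTB ran from -0.14 to 1.19.

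Regulators were thinly covered, with 6 of 21 measured. GATA1, KLF1 and TAL1, the defining factors, were not matched to a probe. EPOR, the erythropoietin receptor, was 2.08-fold lower with HPD on day 3, and SOX6, which silences embryonic globin in mice, 2.84-fold lower, whereas MYB, a progenitor factor, and KIT, the stem cell factor receptor, differed by -0.14 and 0.09. The 7 probes of KIT ran from -0.93 to 0.90. EPO, the hormone itself, differed by -0.44, and its other probe by 0.19. The median of the list was -0.29 on day 3, 0.48 on day 5 and 0.16 on day 7.

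Of 16 tested genes for iron uptake, enzymes and maturation, 6 were at least 2-fold lower with HPD on day 3, with a median of -0.55. CA1, the red cell carbonic anhydrase, stood at 2.02, 4.73 and 3.08 in HPD defects of days 3, 5 and 7, against 4.13, 3.79 and 2.94 in control defects. BPGM, which makes the 2,3-bisphosphoglycerate that loosens oxygen from haemoglobin, is named after its values were seen: it was lower by 2.23-fold on day 3, then 1.62-fold above control on day 5. TFRC, the transferrin receptor, which dividing cells of many kinds use to take up iron, ran against the list: it stood 0.77, 0.64 and 1.50 above control in HPD defects of days 3, 5 and 7. STEAP3, which reduces the iron taken up, SLC11A2, which carries it out of the endosome, and TFR2, the second transferrin receptor, differed on day 3 by -0.40, -0.14 and 0.16.

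**Figure D3:**
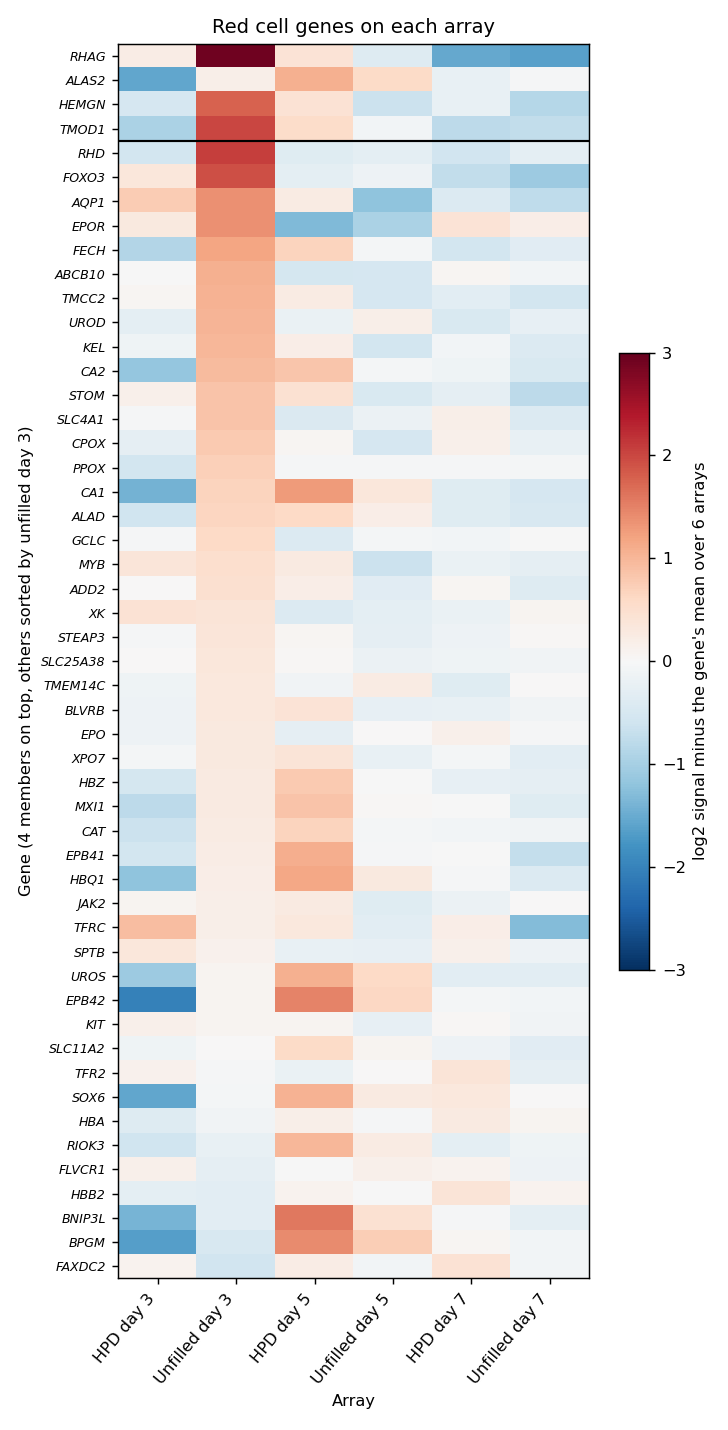
Level of the 4 members and 47 of the tested genes of the red cell lists (rows) on each array (columns, HPD left of unfilled within a day), as log2 signal minus the gene's mean over 6 arrays, with red above that mean and blue below it. The day 3 control column is the highest for 22 of these 47 genes and the day 5 HPD column for 16.

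Relatives of the members with other sites of expression were compared with them. TMOD2, the neuronal tropomodulin, and TMOD3, the widespread one, differed between HPD and control by 0.26 and 0.10 on day 3, where TMOD1 differed by -2.97. The list of skeletal muscle genes, the other tissue rich in TMOD1, had a median of 0.17 on day 3. At least 2-fold lower were 0 of 10 (background 3.01%), a count near the background. Its level medians on day 3 were low, -2.54 in HPD and -3.23 in control defects. The probes of ACTA1 ran from -0.43 to -0.25, those of TNNT3 from 0.15 to 0.92 and those of MYH1 from 0.51 to 1.63. The part of muscle in the TMOD1 level was not tested. RHCG, the epithelial relative of RHAG, was 2.29-fold lower on day 3 by its brightest probe, and its 5 probes ran from -1.21 to -0.53. RHBG was not well above background on any array.

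Likeness of course was measured as the root mean square difference between log2 profiles, each centred on its mean over the 6 arrays. Among the members, HEMGN and TMOD1 were the closest pair at 0.40 and RHAG and ALAS2 the most distant at 1.65. To the mean profile of the 4 members, TMOD1 lay at 0.17, HEMGN at 0.30, RHAG at 0.79 and ALAS2 at 0.88. Each member is part of that mean, so these distances cannot be set against the median of 0.97 for 9339 named genes. Among the 10 nearest named genes were GPR160, an orphan receptor, at 0.26, TUBB1, the beta-tubulin of platelets, at 0.27, FECH at 0.31 and TSPAN33, a tetraspanin, at 0.32. RASGRP2, AK4, RAC2, HOXC4 and NKIRAS2 followed at 0.33 to 0.40. Nearest to RHAG was CLEC1B, a platelet receptor, at 0.24, with BCL2L15 and HP, the haemoglobin-binding plasma protein haptoglobin, after it. TFDP2, an E2F partner, lay nearest to ALAS2 at 0.11, followed by TCP11L2 and MARCHF2. HEMGN had GPR160, AK4 and LBP nearest, and TSPAN33 and GPR160 were among the 3 nearest to TMOD1. All these profiles share the same 6 arrays, and the order is a description of them.

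Platelet and immature granulocyte genes also stood lower with HPD on day 3. Of 8 platelet and megakaryocyte genes well above background on both arrays, 6 were at least 2-fold lower, and the list median was -1.38. ITGA2B, the platelet integrin chain, TUBB1 and TREML1, a receptor of platelet granules, differed by -1.18, -1.88 and -1.73, whereas ITGB3, an integrin chain of many cells, differed by 0.32. In level the 7 tested platelet genes had medians of -1.11, -1.20 and -1.44 in HPD defects of days 3, 5 and 7, against 0.62, -1.16 and -1.21 in control defects, and SELP was not above background on any array. All 5 genes of immature granulocytes and eosinophils were at least 2-fold lower, with a list median of -2.95. Their level medians were -0.26, -2.04 and -2.37 in HPD defects, against 3.27, -2.51 and -2.51 in control defects. MPO, the peroxidase of granulocyte precursors, was 6.68-fold lower with HPD on day 3, and PRG3, an eosinophil granule protein, 11.6-fold lower. MS4A3, EPX, the eosinophil peroxidase, and CAMP, a granule peptide, differed by -2.95, -3.43 and -1.92. The part of these cells in the day 3 difference of the members was not tested.

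Mature neutrophil genes had a median difference of -0.58 on day 3, with 4 of 10 at least 2-fold lower, and 0.69 and 0.43 on days 5 and 7. S100A8 and S100A9, the calprotectin genes, differed by -1.20 and -1.53 on day 3, and the other probe of S100A9 by -0.07. Lymphocyte, macrophage and endothelial lists had day 3 medians of -0.08, 0.55 and 0.23, and the list of bone marrow progenitor genes one of 0.10. All 12 cell division genes were lower with HPD on day 3, none by 2-fold, with a median of -0.47. For haem and iron clearance the median was -0.02, and HP was 5.30-fold lower with HPD on day 3, then 1.95-fold above control on day 5. HMOX1, the enzyme that breaks down haem, differed by 0.05, 0.36 and -1.07 on days 3, 5 and 7.

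**Figure D4:**
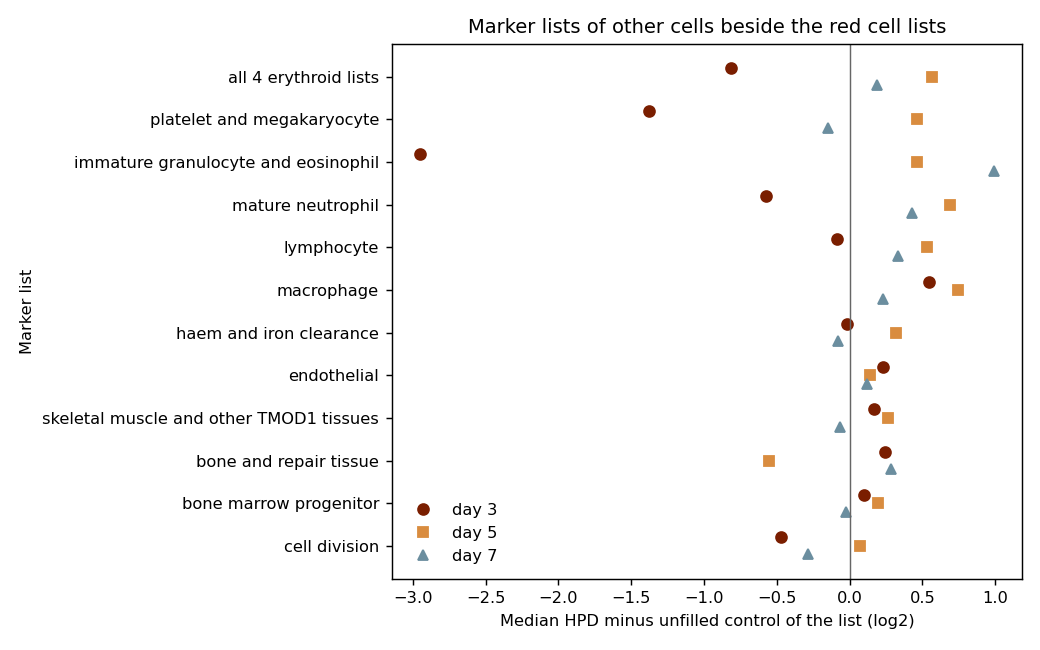
Median difference between HPD and control defects (log2, horizontal axis) of the 4 red cell lists as a whole and of marker lists of other cells and processes (vertical axis), with circles for day 3, squares for day 5 and triangles for day 7. On day 3 the red cell, platelet, immature granulocyte and mature neutrophil medians lie at -0.81, -1.38, -2.95 and -0.58. On day 5 every list median is above 0 except that of bone and repair tissue at -0.55. The macrophage, red cell and lymphocyte medians of day 5 lie at 0.75, 0.57 and 0.54, where the median over all features was 0.10.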

How the data were processed

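The deposited files hold spot intensity on a linear scale and spot marks (background, saturation and outlier flags), which per the file headers came from Agilent Feature Extraction 10.5.1.1 and a rabbit design on oryCun2, with background subtraction and detrending and no step between arrays. Each array held 45220 spots for 43603 probes. Processed intensity was divided by its 75th percentile on the array and taken to log2. Outlier spots were dropped (41 probes lost) and repeats averaged. Names came from the array's columns and a RefSeq gene list of assembly mOryCun1.1, whose coordinates were not used: 22668 probes had 1 symbol, 13 of them by product name, and 20935 had none. The brightest probe stood for a gene, and tests took features measured above background on 3 or more arrays.

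Treatment and day were tested with limma 3.58.1 (R 4.3.3, with the package data.table of version 1.17.8) with Benjamini-Hochberg adjustment at 0.05. The procedure was tested on simulated data in which the treatment effect was equal on every day. Effects that change sign between days were not simulated. No label names separate animals per array, so a p-value reflects the spread of these arrays alone, and their number limits the precision. Single days were compared by counts at least 2-fold apart. The members and the 18 gene lists were chosen with earlier results of these data known. Named were the members, the first 5 tested genes of each list, the 10 genes nearest to the members' mean profile and the 3 nearest to each member, and other genes are said to have been chosen after their values were seen; some genes the rule names are not reported here. Alternatives were quantile normalization, a median shift, normexp (offset 50), the mean of all probes, other filters, an intensity trend, the model without day or treatment terms, and left-out days and arrays. Tables used pandas 2.3.3 and numpy 2.4.6 in Python 3.11.15, and plots matplotlib 3.10.9.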

Additional observations from a re-analysis of the deposited data

Results flagged for a closer look

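The members' differences had opposite signs on different days, each from 1 array per treatment and day. HPD minus control was -2.69 on day 3 for RHAG but 0.80 on day 5 and 0.11 on day 7 (-2.10, 0.27 and -0.06 under normexp). For HEMGN it was -2.27 on day 3 but 1.07 on day 5 and 0.62 on day 7. TMOD1 had -2.97 on day 3 and 0.61 on day 5, and ALAS2 -1.75 on day 3 and 0.51 on day 5. Single pairs of days were not tested. The comparison of day 3 with days 5 and 7 together, given with the results, called 0 members after adjustment (limma).

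The change between days also differed in sign between treatments. From day 3 to day 5, RHAG moved by 0.17 in HPD defects and -3.32 in control defects, HEMGN by 0.92 and -2.42, and TMOD1 by 1.50 and -2.08. From day 3 to day 7, ALAS2 moved by 1.34 in HPD defects and -0.23 in control defects, HEMGN by 0.27 and -2.62, and TMOD1 by 0.18 and -2.74. These differences were not tested, and they rest on the same day 3 arrays as those between HPD and control.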

How the results depend on the processing

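Without day 3 the treatment effect was 0.45 for RHAG, 0.16 for ALAS2, 0.85 for HEMGN and 0.28 for TMOD1, in place of negative values, by construction the same as without either array of day 3. Features called for day 5 minus day 3, 1 in the results, numbered 0 under quantile normalization, without a filter and without day 7, 2 with an intensity trend, 18 without the treatment term and 300 under normexp. Those for day 7 minus day 3, also 1, numbered 0 under quantile normalization, without a filter and without day 5, 5 among features well above background on all arrays, 9 with a trend, 382 without the treatment term and 1024 under normexp. For day 7 minus day 5, 0 in the results, they were 1 with a trend, 2 under normexp and 3 without the treatment term. The treatment effect called 0 under every alternative. The added day 3 comparison called 529 features under normexp, where RHAG stood at -2.20 (limma adjusted p = 1.16e-07), ALAS2 at -1.87 (1.65e-05), HEMGN at -3.02 (1.98e-14) and TMOD1 at -2.70 (1.81e-11), and 0 under the others. RHAG in control defects, day 7 minus day 3, was -2.62 under normexp. RHAG, HPD minus control, was 0.27 on day 5 and -0.06 on day 7 under normexp. The 2-fold calls lost under normexp or the median shift are given with the results. The cause of these shifts was not tested. The count of red cell genes at least 2-fold lower on day 3 ran from 14 (normexp) to 24 (median shift).

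Arrays were left out one at a time, which was chosen after seeing the data; a lone array of a day then adds nothing to the treatment effect. That effect then ran from -1.29 to 0.45 for RHAG, -0.97 to 0.16 for ALAS2, -0.82 to 0.85 for HEMGN and -1.51 to 0.28 for TMOD1. For day 5 minus day 3 the count of called features ran from 0 to 135 (135 without the HPD array of day 3), RHAG from -3.14 to -0.00073, ALAS2 from 0.56 to 2.47, HEMGN from -2.31 to 0.81 and TMOD1 from -1.91 to 1.34, with values above 0 without the control array of day 3 and, at 0.19 and 0.77, without that of day 5. For day 7 minus day 3 the count ran from 0 to 241 (241 without the HPD array of day 3), RHAG from -4.73 to -1.58, ALAS2 from -0.40 (without the HPD array of day 3) to 1.52, HEMGN from -2.73 to 0.38 and TMOD1 from -2.91 to 0.34 (both above 0 without the control array of day 3). For day 7 minus day 5 RHAG ran from -2.63 to -0.54 and ALAS2 from -1.69 to -0.22. HEMGN ran from -1.37 to 0.52, at 0.19 without the control array of day 7, and TMOD1 from -2.05 to 0.067, both highest without the HPD array of day 5. The day term pairs the 2 treatments of a day; without it the treatment effects kept their values and 0 features were called, with limma adjusted p from 0.897 to 0.984 for the members. Both the number of arrays and, for RHAG, the handling of background limit the precision.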

Other observations

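The spread of the negative control spots, in intensity units, was 6.42, 12.99 and 5.78 on the HPD arrays of days 3, 5 and 7, against 7.36, 0.324 and 0.109 on the control arrays.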
